A study of Mus musculus with 6 samples.

Results

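The MHC class I antigen presentation genes examined here are 10 genes chosen by name for their role, out of 41388 Ensembl genes in the deposited table: *H2-K1*, *H2-D1*, *B2m*, *Tap1*, *Tap2*, *Tapbp*, *Psmb8*, *Psmb9*, *Nlrc5* and *Erap1*. The rule uses no measured value, but the genes were chosen with earlier results of these data known. Each identifier was matched to a GENCODE M21 symbol, and all 10 passed the filter on low values that left 12693 genes for testing. RNA was sequenced from primary C57BL/6J hepatocytes, isolated by collagenase digestion, cultured overnight and then exposed for 24 h to about 1000000 adenoviral particles per 1000000 cells. The control group (β-gal) received adenovirus encoding beta galactosidase and is represented by replicates 1, 2 and 3, and the Aloxe3 group received adenovirus encoding ALOXE3, an epidermal-type lipoxygenase, and is represented by replicates 7, 8 and 9 (n = 3 libraries per group). Both groups thus carried an adenovirus, and no uninfected culture was analysed here. The labels do not say whether the libraries of a group came from separate animals or cultures, so the p-values measure the spread between these libraries, which may be technical.

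MHC class I molecules display fragments of a cell's own proteins, and of viral proteins, to cytotoxic T cells and natural killer cells. The proteasome cuts cytosolic proteins into peptides, the TAP transporter carries them into the endoplasmic reticulum, aminopeptidases trim them, and tapasin helps load them onto a heavy chain paired with β2-microglobulin. The heavy chain genes are induced by interferons and by NF-κB, and NLRC5 is the main transactivator of the class I promoters. Hepatocytes are known for little class I on their surface at rest that rises with interferon.

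The promoters of the heavy chain genes are known to carry sites of these regulators. The promoters are shown because *H2-K1* and *H2-D1*, the classical heavy chain genes of this strain, stood at levels near each other. The RPKM of *H2-K1* was 1.14 to 1.21 times that of *H2-D1* in the 6 libraries, a ratio that depends on the gene lengths used. Sequences are from RefSeq windows on GRCm38.p6 that run from 250 bases before to 50 bases after each start site, and 8 of the 10 genes had a window. The bases before the *H2-K1* start (chr17:34000348-34000597, minus strand) and before the *B2m* start (chr2:122147437-122147685, plus strand) are printed 5′ to 3′ with matches to 6 motif patterns in capitals.
H2-K1: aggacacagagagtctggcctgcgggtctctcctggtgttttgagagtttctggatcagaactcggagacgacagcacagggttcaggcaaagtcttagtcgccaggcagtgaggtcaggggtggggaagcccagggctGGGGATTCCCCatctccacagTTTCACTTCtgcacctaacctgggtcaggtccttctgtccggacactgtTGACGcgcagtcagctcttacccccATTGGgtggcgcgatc
B2m: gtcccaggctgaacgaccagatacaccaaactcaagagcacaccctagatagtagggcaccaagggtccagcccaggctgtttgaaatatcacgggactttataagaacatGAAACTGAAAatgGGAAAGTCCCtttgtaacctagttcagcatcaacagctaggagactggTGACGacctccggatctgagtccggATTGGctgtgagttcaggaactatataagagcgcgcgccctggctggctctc

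The motifs were searched on both strands as GGGNNTTCC for the NF-κB core, GAANNGAAA for the core of the interferon-stimulated response element, TGACG for the short site of a cAMP response element, which is the core of the X2 box, and CCAAT for the CCAAT box. After these matches had been seen, 2 longer patterns were added, GAAA followed by any 2 bases and GAAA for the usual spacing of the response element, and the NF-κB consensus, since the shorter letters cannot match every usual form and overlap with the longer ones. The *H2-K1* sequence held 1 match to each of the first 4 patterns, in the order NF-κB core, response element, short site and CCAAT box, and its NF-κB core overlapped matches to the NF-κB consensus. The *B2m* sequence held the longer response element and the NF-κB consensus, 139 and 126 bases before the start, followed by the short site and the CCAAT box. *H2-D1* held the same 4 motifs in the same order, and each of the heavy chain genes had a further CCAAT box, 53 bases before the start in *H2-D1* and just after the start in *H2-K1*. Upstream of both genes 161 of 177 aligned positions were identical (91%). The 30 bases from the NF-κB core to the response element are shown for both because they hold both sites (chr17:34000429-34000458, minus strand, for *H2-K1* and chr17:35262923-35262952, plus strand, for *H2-D1*), and 29 of the 30 were identical.
H2-K1 NF-kB core to response element: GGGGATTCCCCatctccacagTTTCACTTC
H2-D1 NF-kB core to response element: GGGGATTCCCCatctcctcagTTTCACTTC

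Over the windows of 27025 genes, 5.72% held the NF-κB core, 7.56% the response element core, 21% the short site, 37.9% the CCAAT box, 3.49% the longer response element and 8.18% the NF-κB consensus. Of the 8 windows of class I presentation genes, those of *H2-K1* and *H2-D1* held the shorter NF-κB and response element patterns, those of *B2m* and *Erap1* the longer response element, and those of *H2-K1*, *H2-D1* and *B2m* the NF-κB consensus, while 5 held the short site and 6 the CCAAT box. *Psmb9* and *Tap1* are transcribed in opposite directions from starts that lie 225 bases apart in RefSeq, so they share the sequence between them. The short site in that shared region is shown with its surroundings (chr17:34187458-34187486, plus strand), because the ratio of both genes is compared further on.
Psmb9-Tap1 short site: cccagagacaggTGACGacagagggtcct
A match is a description of letters in a window and does not show that a factor binds there.

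The sequencing depth was similar across libraries. The library size used for scaling, derived from the whole-number steps of the RPKM values (reads per kilobase of exon per 1000000 reads), ran from 25521908 to 32431318 reads. *Aloxe3* was at 2.04, 2.06 and 1.74 RPKM in β-gal replicates 1, 2 and 3 and at 42.3, 45.8 and 56.3 RPKM in Aloxe3 replicates 7, 8 and 9. Its fold change on the log2 scale was 4.05 with an SE of 0.10 (limma, adjusted p = 4.7e-06), higher in every library labelled ALOXE3. The labels do not say from which species the transgene came, so these values count the reads that aligned to the mouse gene and may not measure the transgene in full. Over all 12693 tested genes 50 were past an adjusted p of 0.05, which is 0.394%. Fold changes are on the log2(RPKM + 1) scale, on which a change at a low level looks smaller than it is.

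None of the 10 class I presentation genes changed past the threshold: 0 of 10 had an adjusted p under 0.05, against 0.394% of all tested genes (0.355% higher and 0.0394% lower with Aloxe3), and 0 of 10 had an unadjusted p under 0.05, against 12.7% of all tested genes. Their log2 fold changes ran from -0.068 for *Psmb8* to 0.14 for *Tap1*, with SEs of 0.034 to 0.075 and adjusted p from 0.456 to 0.952 (limma). *B2m*, *Tap1* and *Nlrc5* had positive values and the other 7 negative ones, although *Nlrc5* turned negative when all libraries were rescaled to the same median and *Psmb9* turned positive without Aloxe3 replicate 9. The median over the 10 was -0.027, beside 0.0049 over all tested genes. The 95% intervals of the 10 fold changes together reached from -0.20 to 0.31 on the log2(RPKM + 1) scale, that is from 0.872-fold to 1.24-fold, and each interval included 0. These intervals are not adjusted for the number of genes. The smallest fold change called among all genes was 0.24 in size on the same scale.

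**Figure D1:**
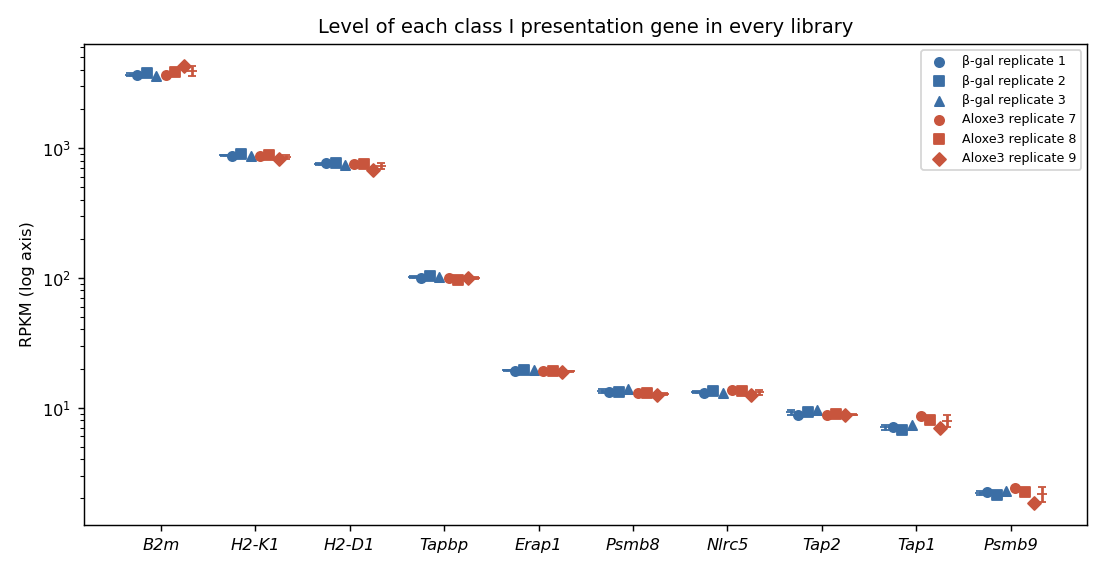
RPKM on a log axis of each of the 10 class I presentation genes in every library, with blue marks for β-gal, red marks for Aloxe3, and a bar with whiskers for the mean and SD of each group (n = 3). The genes span from about 2 RPKM for Psmb9 to at least 3613 RPKM for B2m, while the libraries of a gene lie close together.

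The heavy chains and their partner were among the most abundant transcripts. *B2m* (ENSMUSG00000060802, chromosome 2, 122147686 to 122153083), which encodes β2-microglobulin, was at 3663, 3769.7 and 3613 RPKM in the β-gal libraries and at 3664, 3841.5 and 4294.5 RPKM in the Aloxe3 libraries. It ranked 7 of 12693 tested genes by its β-gal mean. Aloxe3 replicates 8 and 9 lay above every β-gal library, replicate 9 by the wider margin, while replicate 7 lay within the β-gal range, so the groups overlapped. The log2 fold change of *B2m* was 0.092 (95% interval -0.064 to 0.25, adjusted p = 0.596 from limma), and 0.027 without Aloxe3 replicate 9.

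*H2-K1* (ENSMUSG00000061232, chromosome 17, 33996017 to 34000347) was at 869, 893 and 866 RPKM with β-gal and at 873, 877 and 824 RPKM with Aloxe3. Aloxe3 replicates 7 and 8 lay within the β-gal range and replicate 9 below it. The log2 fold change of *H2-K1* was -0.030 (95% interval -0.13 to 0.069, adjusted p = 0.805 from limma), and -0.0008 without Aloxe3 replicate 9. *H2-D1* (ENSMUSG00000073411, chromosome 17, 35262730 to 35267499) was at 760.1, 761 and 742 RPKM with β-gal and at 752, 751 and 680.3 RPKM with Aloxe3. Again replicate 9 alone lay below the β-gal libraries. The log2 fold change of *H2-D1* was -0.053 (95% interval -0.17 to 0.063, adjusted p = 0.693 from limma), and -0.0053 without Aloxe3 replicate 9. The heavy chain genes ranked 36 and 45 among the tested genes by their β-gal means.

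The values rest on uniquely aligned reads, and the heavy chain genes share stretches with one another and with nonclassical class I genes. Of the 50-base windows of the annotated *H2-K1* transcripts, 9.63% also occur in transcripts of other genes, and of those of *H2-D1* 12.8%. Reads from such windows were not counted, so the levels of both are uncertain to that extent. The share was 23.2% for *Tapbp*, 11.9% for *Psmb8*, 11.6% for *Tap2* and 10.7% for *Erap1*, nearly all with genes that overlap them, and at most 4.19% for the other 4 genes. C57BL/6J is the strain of the reference genome, so its class I alleles are those of the reference. The sum of *H2-K1* and *H2-D1*, which lacks the same uncounted reads, was 1629, 1653.5 and 1608 RPKM with β-gal and 1626, 1628 and 1504 RPKM with Aloxe3. The difference of the mean log2 sums was -0.041 (exact permutation test, two-sided p = 0.4, where 0.1 is the smallest p that 3 libraries against 3 allow), and -0.0029 without Aloxe3 replicate 9. Divided by *B2m*, the sum was 0.445, 0.439 and 0.445 with β-gal and 0.444, 0.424 and 0.35 with Aloxe3 (difference of log2 ratios -0.13, exact permutation two-sided p = 0.2). Replicates 8 and 9 lay below the β-gal range and replicate 7 within it. Without Aloxe3 replicate 9 the difference of these log2 ratios was -0.030.

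Peptide transport and loading genes were expressed at lower levels. *Tapbp* (ENSMUSG00000024308, chromosome 17, 33915899 to 33929292), which encodes tapasin, was at 100.2, 103.8 and 101.3 RPKM with β-gal and at 100.4, 96.9 and 99.7 RPKM with Aloxe3. The groups overlapped by a narrow margin, and the log2 fold change was -0.040 (95% interval -0.12 to 0.038). *Tap2* (ENSMUSG00000024339, chromosome 17, 34203527 to 34216321), one subunit of the peptide transporter, was at 8.83, 9.22 and 9.51 RPKM with β-gal and at 8.72, 8.90 and 8.83 RPKM with Aloxe3. Aloxe3 replicates 7 and 9 lay below every β-gal value of *Tap2*, replicate 9 by less than the rounding shown, and replicate 8 within their range, with a log2 fold change of -0.053 (95% interval -0.15 to 0.040). *Tap1* (ENSMUSG00000037321, chromosome 17, 34187553 to 34197225), the other subunit, was at 7.09, 6.75 and 7.29 RPKM with β-gal and at 8.68, 8.05 and 6.98 RPKM with Aloxe3. Aloxe3 replicates 7 and 8 lay above every β-gal library and replicate 9 lay within them. The log2 fold change of *Tap1* was 0.14 (95% interval -0.025 to 0.31, adjusted p = 0.456 from limma). It was the largest among the 10 genes with all libraries, but 0.080 without Aloxe3 replicate 7 (adjusted p = 0.628 from limma), where *B2m* at 0.14 was larger, and 0.22 without Aloxe3 replicate 9 (adjusted p = 0.231 from limma).

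*Erap1* (ENSMUSG00000021583, chromosome 13, 74639568 to 74693201), the aminopeptidase that trims peptides in the endoplasmic reticulum, was at 19.0, 19.6 and 19.3 RPKM with β-gal and at 19.3, 19.1 and 18.8 RPKM with Aloxe3. Its groups overlapped and its log2 fold change was -0.020 (95% interval -0.098 to 0.058). Its SD was 1.52% of the mean in the β-gal libraries and 1.45% in the Aloxe3 libraries.

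The catalytic immunoproteasome subunits *Psmb8* and *Psmb9*, which cut after residues suited to class I binding, were at lower levels than the heavy chain genes. *Psmb8* ranked 4164 and *Psmb9* 9357 among the tested genes by their β-gal means. *Psmb8* (ENSMUSG00000024338, chromosome 17, 34197721 to 34201454) was at 13.2, 13.2 and 14.0 RPKM with β-gal and at 12.9, 12.9 and 12.5 RPKM with Aloxe3. All Aloxe3 values of *Psmb8* lay below all β-gal values, which was so for 1 of the 10 genes, and the groups did not overlap in 19.9% of all tested genes (8.71% with the Aloxe3 values lower). Its log2 fold change was -0.068 (95% interval -0.16 to 0.024, adjusted p = 0.518 from limma). With a library left out it ran from -0.0831 without β-gal replicate 2 to -0.0405 without β-gal replicate 3. *Psmb9* (ENSMUSG00000096727, chromosome 17, 34181987 to 34187764) was at 2.23, 2.13 and 2.26 RPKM with β-gal and at 2.42, 2.23 and 1.84 RPKM with Aloxe3. Aloxe3 replicate 7 was the highest and replicate 9 the lowest of the 6 libraries, with a log2 fold change of -0.024 (95% interval -0.20 to 0.15) that turned to 0.051 without replicate 9 and was -0.083 without replicate 7. *Psmb9* rested on 178 to 263 reads per library, the fewest of the 10 genes, and *B2m* on 80423 to 105141.

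*Nlrc5* (ENSMUSG00000074151, chromosome 8, 94434356 to 94527272), the class I transactivator, was at 13.0, 13.3 and 12.9 RPKM with β-gal and at 13.7, 13.3 and 12.5 RPKM with Aloxe3. The Aloxe3 libraries lay on both sides of the β-gal range. Its log2 fold change of 0.0084 (95% interval -0.090 to 0.11) was the closest to 0 among the 10 genes, and its sign changed when all libraries were rescaled to the same median (-0.0049).

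**Figure D2:**
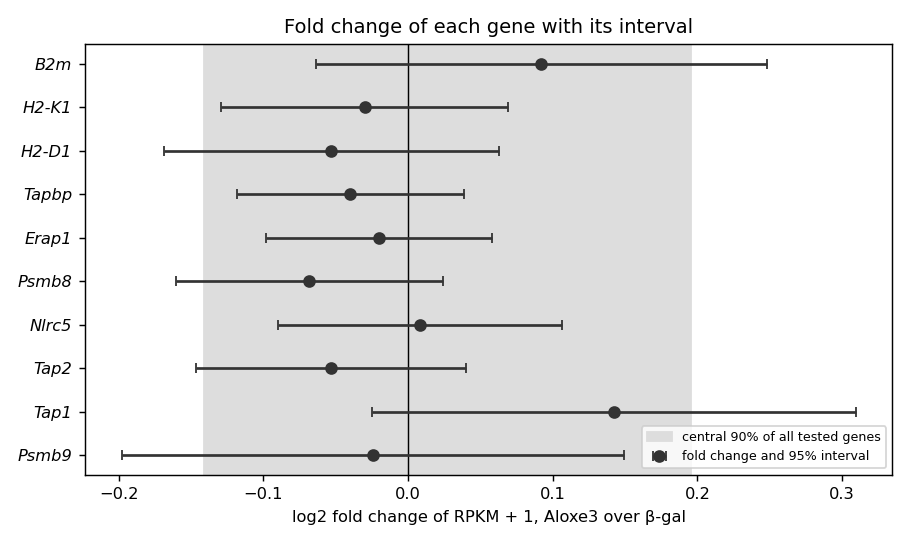
Log2 fold change of RPKM + 1, Aloxe3 over β-gal, of each of the 10 genes (points) with its 95% interval from limma (bars, 3 libraries per group), in order of level, and in grey the range from -0.14 to 0.20 that holds the central 90% of all tested genes. All 10 points lie inside the grey range and every bar crosses 0.

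By RPKM the order of levels in the β-gal libraries was *B2m*, *H2-K1*, *H2-D1*, *Tapbp*, *Erap1*, *Psmb8*, *Nlrc5*, *Tap2*, *Tap1* and *Psmb9*. *Psmb8* and *Nlrc5* did not differ beyond their spread in either group, and the ranges of all other neighbours were apart in both groups. The *B2m* mean was 4.2 times that of *H2-K1*, and the *H2-D1* mean 7.41 times that of *Tapbp*. These levels are per length of the gene as scaled by the authors. That length matched the GENCODE M21 exons for *H2-D1*, *B2m*, *Tap1* and *Tap2*, and for the other 6 genes it was inferred as the smallest length that gives whole reads, for example 3659 bases for *Psmb9*, whose principal transcript has 1352, and 4014 bases for *Erap1*, whose principal transcript has 5644. When reads were divided by the length of the principal transcript instead, a choice made after seeing the data, *Psmb8* and *Tap1* each moved up by 1 place past *Erap1* and *Tap2*, and the other 6 genes held their places. The exchange of *Psmb8* and *Erap1* rests on the inferred lengths. The distances between levels depend on the length too. Per principal transcript length the β-gal means were 3682 for *B2m* and 1411 for *H2-K1*, whose inferred length was 2608 bases against 1619 of its principal transcript. They were 22.6 for *Psmb8* and 13.2 for *Nlrc5*, which lay close together by RPKM. Annotated genes on the opposite strand overlap *B2m*, *Tap1*, *Tap2*, *Tapbp*, *Psmb8*, *Psmb9*, *Nlrc5* and *Erap1*, with *Zbtb22* and *Mir7072* overlapping *Tapbp* and *Nlrc5* on their own strand. Reads in overlaps on opposite strands were either assigned by strand or left out as ambiguous, since only unambiguous reads were counted and no strand setting is stated.

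Aloxe3 replicate 9 stood apart for these genes. It held the lowest of the 6 values for *H2-K1*, *H2-D1*, *Psmb8*, *Psmb9*, *Nlrc5* and *Erap1*, which are 6 of the 10, while it held the lowest value for 30.0% of all tested genes. For *B2m* it held the highest value, as for 19.9% of all tested genes. Relative to the β-gal mean, its log2 deviation was -0.088 for *H2-K1*, -0.15 for *H2-D1*, -0.18 for *Psmb9* and 0.22 for *B2m*, while over all tested genes the median deviation was -0.012. In Aloxe3 replicates 7 and 8 the deviations of *H2-K1* and *H2-D1* were between -0.0065 and 0.0021. The same library had the largest share of reads on the mitochondrial genome, at 3.70% against 2.76 to 2.98% in the other 5, and it differed more from replicates 7 and 8 than these from each other (chi-square per degree of freedom 10.3 and 11.3 against 3.87). The part of these differences in the values of the class I genes was not tested. Without replicate 9 the median log2 fold change of the 10 genes was -0.0031, and 0 of the 10 were past the threshold.

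**Figure D3:**
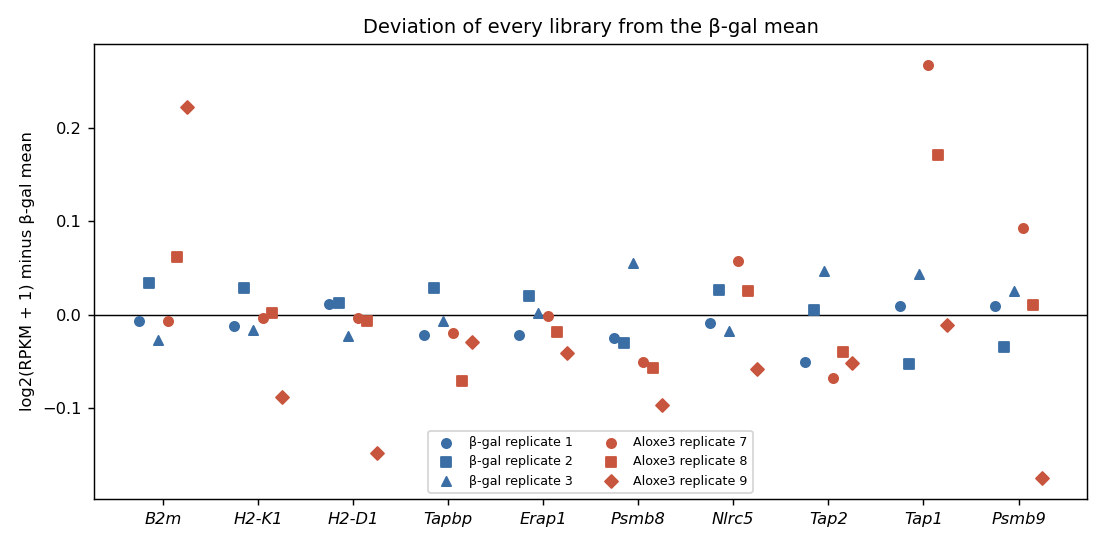
Log2(RPKM + 1) of each of the 10 genes in every library minus the mean of the β-gal libraries, with blue marks for β-gal and red marks for Aloxe3. Aloxe3 replicate 9 (red diamonds) lies lowest for H2-K1, H2-D1, Psmb8, Psmb9, Nlrc5 and Erap1 and highest for B2m, and Aloxe3 replicates 7 and 8 lie above the β-gal libraries for Tap1.

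The immunoproteasome subunits replace constitutive ones, so each was set against its counterpart in the same library. The ratio of *Psmb8* to *Psmb5* was 0.298, 0.307 and 0.334 with β-gal and 0.299, 0.308 and 0.357 with Aloxe3. The ratio of *Psmb9* to *Psmb6* was 0.0182, 0.0177 and 0.0194 with β-gal and 0.0209, 0.0185 and 0.0157 with Aloxe3. For *Psmb10* to *Psmb7* it was 0.208, 0.228 and 0.223 with β-gal and 0.220, 0.229 and 0.225 with Aloxe3. The groups overlapped for all 3 ratios, and each constitutive subunit exceeded its inducible counterpart in every library. The differences of the mean log2 ratios were 0.035, -0.014 and 0.034 (exact permutation test, two-sided, p = 0.6, 1 and 0.6, adjusted over the 3 ratios 0.9, 1 and 0.9). The smallest p this design allows is 0.1, so no ratio could pass the threshold.

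*Tap1* and *Psmb9*, which share the region between their starts, were compared in the same way after their values had been seen. The ratio of *Psmb9* to *Tap1* was 0.314, 0.316 and 0.311 with β-gal and 0.279, 0.277 and 0.264 with Aloxe3. Every Aloxe3 ratio lay below every β-gal ratio, with a difference of log2 ratios of -0.20 (two-sided p = 0.1 by exact permutation, as small as 3 against 3 libraries allow). The counting error of a single ratio was 6.78 to 8.13% of its value, and other error is not covered by it. The β-gal ratios lay closer together than that error, so their small spread understates the uncertainty. No other ratio or sum compared here had groups that did not overlap, and the share of such ratios over all genes was not computed. Both genes had their lowest Aloxe3 value in replicate 9 and their highest in replicate 7. The ratio of *Tap1* to *Tap2* was 0.803, 0.733 and 0.766 with β-gal and 0.996, 0.904 and 0.791 with Aloxe3, where replicate 9 lay within the β-gal range (difference of log2 ratios 0.22, exact permutation two-sided p = 0.2). That difference was 0.14 without Aloxe3 replicate 7 and 0.31 without Aloxe3 replicate 9.

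Around these 10 genes, 95 further genes of the pathway were listed by role in 7 lists, and 79 of them were tested. Past an adjusted p of 0.05 there were 0 of 79 (limma), beside 0.394% of all tested genes, and 14 had an unadjusted p under 0.05, beside 12.7%. The nonclassical class I and class I-like genes, whose products present specialised ligands or serve other tasks, had 14 tested members of 19, with 7 positive and 7 negative log2 fold changes and a median of -0.0044. Of these 14, 5 had an unadjusted limma p under 0.05, beside 12.7% of all tested genes. The groups did not overlap for 4 in the upward and 2 in the downward direction, beside 11.2% and 8.71% of all tested genes. The list was not tested as a set. Its 2 genes with the smallest p had opposite signs. *H2-Bl* was at 3.70, 3.59 and 3.56 RPKM with β-gal and at 2.64, 3.08 and 2.44 RPKM with Aloxe3. The Aloxe3 values of *H2-Bl* were all lower, as in 8.71% of all tested genes. The difference was -0.32 in log2(RPKM + 1) (SE 0.068, limma adjusted p = 0.150), from 110 to 204 reads per library. *H2-T24* was at 3.39, 3.25 and 3.16 RPKM with β-gal and at 3.63, 3.98 and 3.68 RPKM with Aloxe3, with a difference of 0.16 in log2(RPKM + 1) (SE 0.050, limma adjusted p = 0.291).

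The folding and loading genes of the endoplasmic reticulum had 13 tested members of 14, with 7 positive and 6 negative values and a median of 0.0028. *Pdia3*, a disulfide isomerase of the loading complex, was at 199, 220.2 and 214 RPKM with β-gal and at 229, 236 and 229.6 RPKM with Aloxe3 (log2 fold change 0.13, SE 0.045, limma adjusted p = 0.310). *Calr*, which encodes the chaperone calreticulin of the same complex, was at 380.1, 423 and 415 RPKM with β-gal and at 431, 464 and 451 RPKM with Aloxe3 (log2 fold change 0.15, SE 0.052, limma adjusted p = 0.324). For both genes the groups did not overlap, as in 11.2% of all tested genes in the upward direction.

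Of the 12 constitutive and inducible proteasome genes, all tested, 11 had a negative and 1 a positive log2 fold change, with a median of -0.052. *Psmd4*, a ubiquitin receptor of the regulatory particle, had -0.12 (SE 0.042, limma adjusted p = 0.33), and *Psmb7* had -0.082 (SE 0.047, limma adjusted p = 0.511). The cytosolic peptidases that trim or destroy peptides had 8 of 8 tested, 2 positive and 6 negative, with a median of -0.060. Aloxe3 replicate 9 held the lowest of the 6 values for 9 of the 12 proteasome genes and 5 of the 8 peptidases, beside 30.0% of all tested genes. Without it the medians were -0.017 and -0.023, with 11 of 12 and 5 of 8 values negative. Among the peptidases *Prep* had -0.11 (SE 0.036, limma adjusted p = 0.313) and *Dpp9* -0.077 (SE 0.032, limma adjusted p = 0.385).

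All 22 genes of class I transcription factors, interferon receptors and the kinases *Jak1* and *Jak2* were tested, 14 positive and 8 negative, with a median of 0.029. The median dropped to 0.0064 when β-gal replicate 1 was left out, to 0.0068 for β-gal replicate 3 and to 0.012 for Aloxe3 replicate 8. *Rfx5*, a subunit of the complex that binds class I and class II promoters, was at 1.51, 1.67 and 1.61 RPKM with β-gal and at 2.02, 1.89 and 1.80 RPKM with Aloxe3 (log2 fold change 0.16, SE 0.057, limma adjusted p = 0.320). *Ifngr1*, a chain of the interferon γ receptor, differed by 0.084 on the log2 scale (SE 0.035, limma adjusted p = 0.386). The MHC class II genes, which belong to professional antigen presenting cells, had 3 of 10 tested, all with positive values and a median of 0.033. *Cd74*, the invariant chain, was at 2.88, 3.50 and 3.24 RPKM with β-gal and at 3.70, 3.97 and 3.89 RPKM with Aloxe3 (log2 fold change 0.21, SE 0.063, limma adjusted p = 0.279), and *H2-Eb1* had 0.033 (SE 0.11, limma adjusted p = 0.925). The checkpoint and natural killer cell ligands had 7 of 10 tested, 3 positive and 4 negative, with a median of -0.024. The 2 with the smallest p were *Raet1d* (0.094, SE 0.064, limma adjusted p = 0.574) and *Pvr* (-0.078, SE 0.068, limma adjusted p = 0.667).

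**Figure D4:**
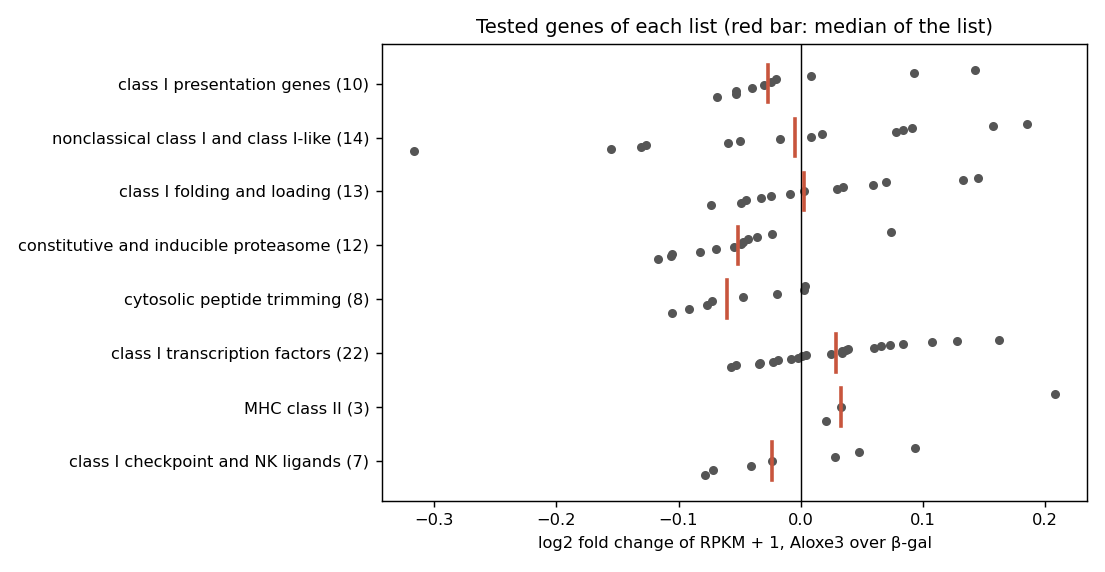
Log2 fold change of RPKM + 1, Aloxe3 over β-gal, of every tested gene (points) in the 10 class I presentation genes and in the 7 lists of other pathway genes, with the number tested in brackets and a red bar for the median of each list. No point is past an adjusted p of 0.05, and H2-Bl at -0.32 lies farthest from 0.

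Markers of other cell types matter here because macrophages and endothelial cells also carry class I molecules, and in bulk RNA fewer cells of a type and less RNA per cell cannot be told apart. The hepatocyte markers were led by *Alb* with 4524 RPKM as β-gal mean, while *Cyp2e1* (2.17 RPKM), *Cps1* (0.985 RPKM) and *Pck1* (0.0708 RPKM) were low in these cultures, and *Ttr* fell (log2 fold change -0.30, adjusted p = 0.0448 from limma), the 1 of 11 tested hepatocyte markers past the threshold, beside 0.394% of all tested genes. Of the 11, 6 had positive and 5 negative log2 fold changes with a median of 0.016 that ranged from -0.014 to 0.052 with a library left out, and *Cps1* at 0.33 was the highest (adjusted p = 0.161 from limma). The summed level of the 12 macrophage markers was 162 to 169 RPKM with β-gal and 143 to 158 RPKM with Aloxe3, most of it *Cd68*, and 0 of 8 tested were past the threshold. Of the 8 tested, 6 had negative and 2 positive log2 fold changes. Only *Cd68*, 1 of the 8, did not overlap between the groups (-0.15, adjusted p = 0.262 from limma), as in 8.71% of all tested genes in the downward direction. *Lyz2* averaged 7.96 RPKM in the β-gal group and 7.48 RPKM in the Aloxe3 group. *Clec4f*, *Timd4* and *Vsig4*, which mark resident Kupffer cells, were between 0.0388 and 0.0706 RPKM in both group means. The rest of the macrophage list lay above these 3 genes. In the β-gal group *C1qb* averaged 2.06 RPKM, *Adgre1* 1.67, *C1qa* 1.64 and *Csf1r* 1.38. *Marco* averaged 0.943, *Cd5l* 0.758 and *Ptprc* 0.178 RPKM in that group. The 10 sinusoidal endothelial markers summed to 41.3 to 47.2 RPKM with β-gal and 40.9 to 46.4 RPKM with Aloxe3, the 10 stellate markers to 5.01 to 5.48 and 4.78 to 5.26 RPKM, and the 6 cholangiocyte markers, nearly all *Spp1*, to 1509 to 1593 and 1577 to 1716 RPKM, with 0 genes past the threshold in these 3 lists. The 14 lymphocyte and dendritic cell markers summed to at most 0.310 RPKM in any library, none passed the filter, and *Cd3d*, *Nkg7* and *Ms4a1* were listed at 0 in all libraries, as was the stellate marker *Lrat*. The part of these cells in the class I values was not tested.

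Over the 6 libraries, the genes outside these lists whose pattern was most like the mean of the 10 standardised class I genes were *Pnrc2*, *Atxn7l3b*, *Limd1*, *Kctd20* and *Slc30a9*, with Pearson r of 0.991 to 0.997 on the log2(RPKM + 1) scale. With 6 points that share libraries, 91 of the 7279 genes considered had an r above 0.95, and the mean of the 10 genes was lowest in Aloxe3 replicate 9. The likeness is given as a description and says nothing of shared control.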

How the data were processed

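The authors aligned single reads of 50 bases from poly-A selected RNA to the Ensembl release 76 mouse assembly (GRCm38.p2) with STAR 2.0.4b, assigned reads with a single alignment to genes in featureCounts 1.4.5 of Subread, and deposited RPKM values, used here as they are. The step from counts to RPKM is not given in the sources used here. Reads per gene were derived from whole-number steps of RPKM (tolerance 0.02), with GENCODE M21 exon length (GRCm38) for 16539 genes and otherwise the smallest length giving whole reads (8444 genes). Of the identifiers, 40254 matched an M21 symbol.

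Log2(RPKM + 1) of 12693 genes (mean over all libraries 0.5 RPKM or more) was tested with limma 3.58.1 in R 4.3.3 (eBayes with trend, two-sided, Benjamini-Hochberg at 0.05). Ratios were tested by exact permutation (scipy 1.17.1). Replicate pairs differed by more than sampling noise (chi-square per degree of freedom at least 3.87), and all 6 libraries were kept. Scripts were tested on simulated reads.

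The 10 genes and all lists were chosen with earlier results of these data known. Named were the 10 genes, *Aloxe3*, in each pathway list the genes called and the 2 with the smallest p, both genes of each ratio, markers listed at 0 or called, and the 5 most similar genes averaging 5 RPKM or more. Other genes were named after their values were seen. Alternatives were other pseudocounts, filters, scalings, a left-out library, eBayes without trend, and voom on derived reads.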

Additional observations from a re-analysis of the deposited data

How the results depend on the processing

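In the 14 alternatives, 0 class I presentation genes and 0 pathway genes were past the threshold, out of 10 and 79 tested, except that 94 pathway genes were tested without a filter, and 9 class I genes (not *Psmb9*) and 61 pathway genes with the filter at 5 RPKM, and the adjusted p of the 10 genes ran from 0.231 to 0.999 (limma). No paired analysis was possible because the groups share no replicate numbers. Of the 139 values of single genes, 5 changed sign. They were *Nlrc5* with rescaling to the same median (-0.0049) and when leaving out β-gal replicate 3, Aloxe3 replicate 7 or Aloxe3 replicate 8 (-0.0161 to -0.0002, against up to 0.0414 without others), and *Psmb9* without Aloxe3 replicate 9 (0.0513, lowest without a library -0.0826). The median of the 10 log2 fold changes ranged from -0.0445 without Aloxe3 replicate 7 to -0.0031 without Aloxe3 replicate 9. With a library left out, an alternative chosen after seeing the data, the median changed sign for the nonclassical genes (-0.0208 to 0.004), folding and loading (-0.0292 to 0.0204), class II (-0.0017 to 0.0947), hepatocyte markers (-0.0137 to 0.0519), macrophage markers (-0.1281 to 0.0391), endothelial markers (-0.0755 to 0.0245), cholangiocyte markers (-0.0585 to 0.0837) and checkpoint and NK ligands (-0.0348 to 0.0106). With a library left out, the differences of log2 ratios ran from -0.0431 to 0.085 for *Psmb8* to *Psmb5*, from -0.1112 to 0.0924 for *Psmb9* to *Psmb6* and from -0.0035 to 0.0608 for *Psmb10* to *Psmb7*, so that each took both signs. The count of genes called over the whole table was 50, 7 without a filter on low values, 6 to 19 with a library left out and 173 with voom on derived reads; the cause was not tested. With a pseudocount of 0.1 the intervals of the 10 genes reached from -0.28 to 0.35, and with voom from -0.26 to 0.31. No scaling moved the median of all genes by more than 0.0146 (log2). *Psmb9* had the fewest reads, 178 to 263 per library.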

Other observations

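The part of chromosome 17 from *Tapbp* to the last gene with an H2 symbol (33915899 to 37483552 in GRCm38) holds 7 of the 10 class I presentation genes and 117 tested genes. Of these 117, 63 had positive and 54 negative log2 fold changes, with a median of 0.0077, and 1 was past the threshold, beside 0.394% of all tested genes, so no more is read from that count. It was *Tcf19*, a cell cycle related gene, which was 0.46 higher with Aloxe3 on the log2 scale (SE 0.067, limma adjusted p = 0.0478), named after its values were seen. *Ddah2* (-0.19, SE 0.040, adjusted p = 0.142 from limma) and *H2-Bl* had the next smallest p.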
